A study of Mus musculus with 12 samples.

Results

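The TNF superfamily of ligands and the TNF receptor superfamily were measured here as 34 genes, 16 ligands and 18 receptors, of the 770 genes of an nCounter mouse immune panel. The members are the panel genes whose symbols begin with Tnfsf or Tnfrsf, together with Tnf, Lta, Ltb, Ltbr, Cd27, Cd70, Cd40, Cd40lg, Fas and Fasl. The rule reads gene symbols and no measured value, although the family was picked with earlier results of these data known, and 750 genes were tested once the 20 reference genes of the panel were set aside. RNA came from 12 tumors of A20, a B cell lymphoma line of Balb/c origin, 1 tumor per female Balb/c mouse, grown from subcutaneously implanted cells. About 7 days after implantation, when tumors were established, 4 mice each received intratumoral PBS, SE (a stable oil-in-water emulsion given alone) or GLA-SE, which is glucopyranosyl lipid A, a synthetic TLR4 agonist, formulated in the same emulsion and called G100 in the study. Each GLA-SE injection held 10 µg of GLA in 50 µl of 2% emulsion, while the labels give no amount for SE alone. All 12 mice received 3 injections, every other day, and every tumor was taken 2 h after the last. The lymphoma line, the strain, the sex and the schedule were thus shared by the 3 groups, and the model is 1 cell line grown under the skin of an immunocompetent host.

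Ligands of the TNF superfamily are mostly membrane proteins that are recognised as trimers by receptors on neighbouring cells, and some are also shed in soluble form. The receptors lack enzyme activity of their own. They recruit TRAF adaptors, which lead to NF-kB and MAP kinase signalling, or, in the case of the death receptors, FADD and caspase-8. In lymphoid tissue the family carries survival signals for B cells (BAFF and APRIL), costimulation of T cells and antigen-presenting cells (CD40, OX40, GITR, CD27 and 4-1BB, the product of Tnfrsf9), the layout of lymphoid organs (lymphotoxin) and killing of target cells (Fas ligand and TRAIL). A tumor of this kind can hold most of the cells that make or read these signals, because the A20 cells are themselves B cells and the host supplies the T cells, myeloid cells and stroma.

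Promoter sequences are shown for 5 members, so that the genes can be placed. Ltb and Tnf are direct neighbors in the genome. Tnfrsf1b, Tnfrsf17 and Tnfrsf9 are among the receptors called higher in GLA-SE tumors relative to the reference genes. They were positive too under panel median scaling, in which each tumor is scaled to the median of its panel genes. Each printed sequence is the 250 bases before the annotated start, 5′ to 3′ on the strand of the gene, from RefSeq on GRCm38.p6. Capitals mark an NF-kB-like match (GGGNNNTTCC, or GGAANNNCCC on the other strand) or an interferon response-like match (GAAANNGAAA, or TTTCNNTTTC on the other strand). Not printed are the other receptors of that description, Tnfrsf11a, Tnfrsf1a and Tnfrsf18, whose promoters hold neither match. The first annotated start of Tnfrsf9, also not printed, holds neither match. The receptors printed are thus those of that description with a match, and the display cannot tie these letters to higher counts. Tnfsf4, called in both comparisons with GLA-SE tumors, had no promoter to print. Ltb lies at chr17:35194257-35194506 (plus strand), Tnf at chr17:35202008-35202257 (minus strand), Tnfrsf1b at chr4:145246871-145247120 (minus strand), Tnfrsf17 at chr16:11313559-11313808 (plus strand) and the second annotated start of Tnfrsf9 at chr4:150927749-150927998 (plus strand).
Ltb: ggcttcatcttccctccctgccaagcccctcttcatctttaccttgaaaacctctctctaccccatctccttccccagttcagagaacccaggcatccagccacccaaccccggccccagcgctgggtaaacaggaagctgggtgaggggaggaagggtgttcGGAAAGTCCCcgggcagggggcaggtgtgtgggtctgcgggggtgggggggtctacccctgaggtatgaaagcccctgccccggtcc
Tnf: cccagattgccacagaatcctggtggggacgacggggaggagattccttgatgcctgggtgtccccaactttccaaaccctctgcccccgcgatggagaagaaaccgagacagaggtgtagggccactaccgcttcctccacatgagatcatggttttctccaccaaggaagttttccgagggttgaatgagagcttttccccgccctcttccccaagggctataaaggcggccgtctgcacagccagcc
Tnfrsf1b: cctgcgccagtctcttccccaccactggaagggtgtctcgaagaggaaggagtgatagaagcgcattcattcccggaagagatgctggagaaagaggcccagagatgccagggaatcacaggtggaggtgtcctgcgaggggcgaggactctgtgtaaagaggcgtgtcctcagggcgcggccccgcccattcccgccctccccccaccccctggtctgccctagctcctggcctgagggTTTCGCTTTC
Tnfrsf17: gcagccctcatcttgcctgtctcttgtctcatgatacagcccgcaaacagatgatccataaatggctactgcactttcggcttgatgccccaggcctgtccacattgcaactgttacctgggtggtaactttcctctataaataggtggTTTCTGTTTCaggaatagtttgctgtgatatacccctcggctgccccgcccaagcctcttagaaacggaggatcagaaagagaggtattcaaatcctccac
Tnfrsf9: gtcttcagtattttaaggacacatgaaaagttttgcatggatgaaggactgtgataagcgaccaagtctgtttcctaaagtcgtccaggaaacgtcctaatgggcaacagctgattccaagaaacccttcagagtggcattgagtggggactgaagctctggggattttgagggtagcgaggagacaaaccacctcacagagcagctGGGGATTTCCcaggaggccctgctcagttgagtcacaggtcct

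All 34 members matched the RefSeq gene table by symbol, and 27 of them had a promoter in it, 29 promoters in all. The NF-kB-like letters were found in 2 of these 29, in Ltb at 87 bases and in Tnfrsf9 at 43 bases before the start, against 4.65% of all 32851 mouse promoters of the same length. The interferon response-like letters were found in 4 of 29, in Tnfrsf1b at 10, Tnfrsf17 at 101, Tnfrsf14 at 64 and the second start of Tnfsf13b at 16 bases before the start, against 2.98% of all promoters. TATAAA, or TTTATA on the other strand, was found in 5 of 29 (Lta, Tnf, Tnfrsf17, Tnfsf11 and Tnfsf18) against 12.4%, and TGANTCA, the AP-1 letters, in 6 of 29 against 6.75%. No match spans another of these motifs in the printed sequences. A match here is a description of letters and not of a bound site. Several members sit side by side in the genome with no protein-coding gene between them: Ltb, Tnf and Lta on chromosome 17, Cd70 and Tnfsf14 also on 17, Tnfsf4, Tnfsf18 and Fasl on chromosome 1, Tnfsf15 and Tnfsf8, Tnfrsf1b and Tnfrsf8, and Tnfrsf4 and Tnfrsf18 on chromosome 4, and Tnfsf13 and Tnfsf12 on chromosome 11.

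Total counts ranged from 812522 to 1086462 in PBS tumors, from 1186487 to 1612415 in GLA-SE tumors and from 810260 to 1268512 in SE tumors. Counts were divided by a factor from the geometric mean of 17 reference genes, and the results, called scaled counts below, are given for the 4 tumors of a group in replicate order. That geometric mean was 2184 to 2818 deposited counts in PBS, 1894 to 2135 in GLA-SE and 1011 to 3077 in SE tumors. SE replicate 4 had the lowest value of the 12 tumors, so its scaled counts were raised the most. The B cell markers (Cd79a, Ms4a1 and 4 others) summed to between 11612 and 19661 scaled counts in every tumor. They do not separate A20 cells from host B cells. The label names the cells as A20 only, although the markers of host cells were present as well. SE replicates 3 and 4 stood apart from SE replicates 1 and 2, with endothelium and fibroblast markers at 28047 and 120497 against 3493 and 4427. GLA-SE replicate 3 stood apart in its neutrophil markers, at 8876 against 813 to 2173 in the other GLA-SE tumors. Among the 34 members, SE replicate 4 gave the highest of the 4 SE scaled counts for 21 and GLA-SE replicate 3 the highest of the 4 GLA-SE scaled counts for 21. On the deposited counts SE replicate 4 was highest for 12, SE replicate 1 for 16 and GLA-SE replicate 3 for 18. The same counts over the panel are not given, so the pattern need not be particular to the members. The members varied most in the SE group, with a median coefficient of variation over the members of 50.0%, against 32.8% in GLA-SE and 17.2% in PBS tumors. Over all 750 genes these medians were 52.7%, 23.0% and 16.5%. No member was at 0 in any tumor, but no background was subtracted, so a count above 0 need not mean expression. For 3 members (Tnfrsf17, Tnfsf13 and Tnfsf8) the deposited counts were below 20 in most tumors, and for Tnfsf8 in all 12, so their values rest on few molecules. In these bulk samples, fewer cells of a type and less RNA per cell cannot be told apart.

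**Figure D1:**
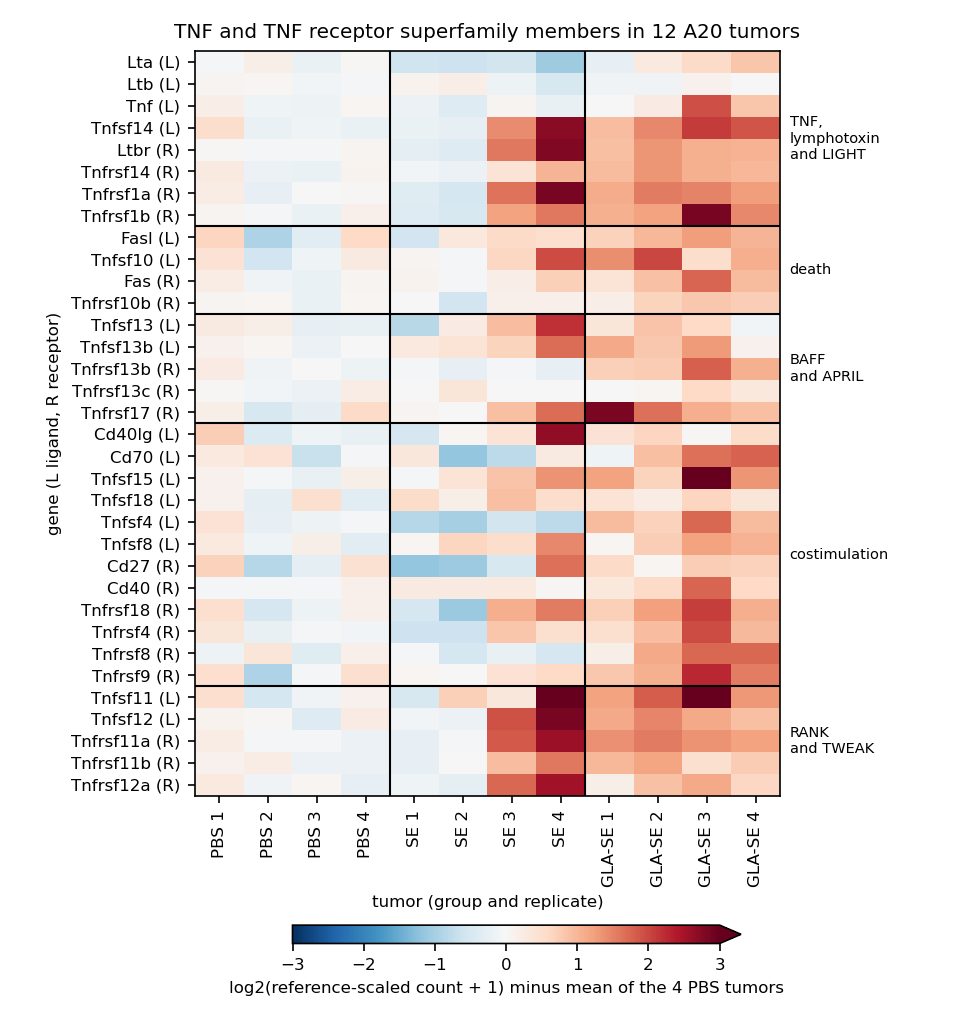
Each row is a member (L ligand, R receptor) and each column a tumor; color is log2(scaled count + 1) minus the mean of the 4 PBS tumors, and values above 3 take the darkest red (only Tnfsf11 and Tnfsf15 reach it). SE replicates 3 and 4 carry most of the red in the SE block, and GLA-SE replicate 3 the darkest cells in the GLA-SE block, on the reference gene scale.

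The first question was how the family differed between tumors given GLA-SE and tumors given PBS. Relative to the reference genes, 25 of 34 members rose in GLA-SE tumors (edgeR quasi-likelihood test, adjusted p under 0.05). None fell or was lower at an unadjusted p under 0.05. Under panel median scaling, however, 24 of the 34 log2 fold changes were negative. There 9 members were called lower (26.5%, against 40.9% of the panel) and none higher (0.0%, against 8.13%). The 9 were Cd27, Cd40lg, Lta, Ltb, Tnfrsf10b, Tnfrsf12a, Tnfrsf13c, Tnfsf13 and Tnfsf18. Of these, Tnfrsf10b and Tnfrsf12a were called higher with the reference genes. With the reference genes the same test called 68.7% of the 750 panel genes, 68.3% higher and 0.4% lower. The share of members called there, 73.5%, was thus near the background. The median log2 fold change was 1.08 over the members and 0.89 over the panel, and 23 members lay above the panel median. For 22 members (64.7%) every GLA-SE tumor was above every PBS tumor, against 63.6% of the panel, and on the deposited counts before any scaling this held for 16 members, against 44.7%. Receptors were called in 16 of 18 and ligands in 9 of 16, relative to the reference genes. Their median log2 fold changes were 1.12 and 0.94, and whether receptors and ligands differed was not tested. These counts, and those by role below, stand beside the 68.3% of the panel called higher.

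The calls and their directions depended on the scaling. With each tumor scaled to the median of its panel genes, the panel's own median log2 fold change became -0.40 from 0.89. Of the 25 called members, 10 kept a positive value there: Tnfsf15 (1.48), Tnfsf11 (0.81), Tnfrsf17 (0.68), Tnfrsf1b (0.47), Tnfsf14 (0.37), Tnfrsf9 (0.15), Tnfrsf11a (0.11), Tnfsf10 (0.09), Tnfrsf1a (0.08) and Tnfrsf18 (0.02), and the other 15 turned negative. With TMM scaling, Tnfsf11, Tnfrsf1b, Tnfsf14, Tnfrsf11a and Tnfrsf1a were called higher (14.7%, against 19.7% of the panel). Ltb and Tnfrsf13c were called lower (5.88%, against 22.4% of the panel). With all 12 tumors in 1 fit, in which the SE tumors enter the estimate of the spread, edgeR called 10 of the 25 (29.4% of the members, against 33.7% of the panel): Cd40, Fas, Tnfrsf13b, Tnfrsf14, Tnfrsf17, Tnfrsf1b, Tnfrsf8, Tnfrsf9, Tnfsf15 and Tnfsf4. The other 15 lost their calls with the same fold changes, at edgeR adjusted p from 0.0527 (Tnfrsf4) to 0.28 (Tnfrsf12a), among them Tnfsf14 (0.0589), Tnfrsf11a (0.0688), Tnfsf11 (0.0938), Tnfrsf1a (0.0956), Tnfsf12 (0.129) and Ltbr (0.151).

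**Figure D2:**
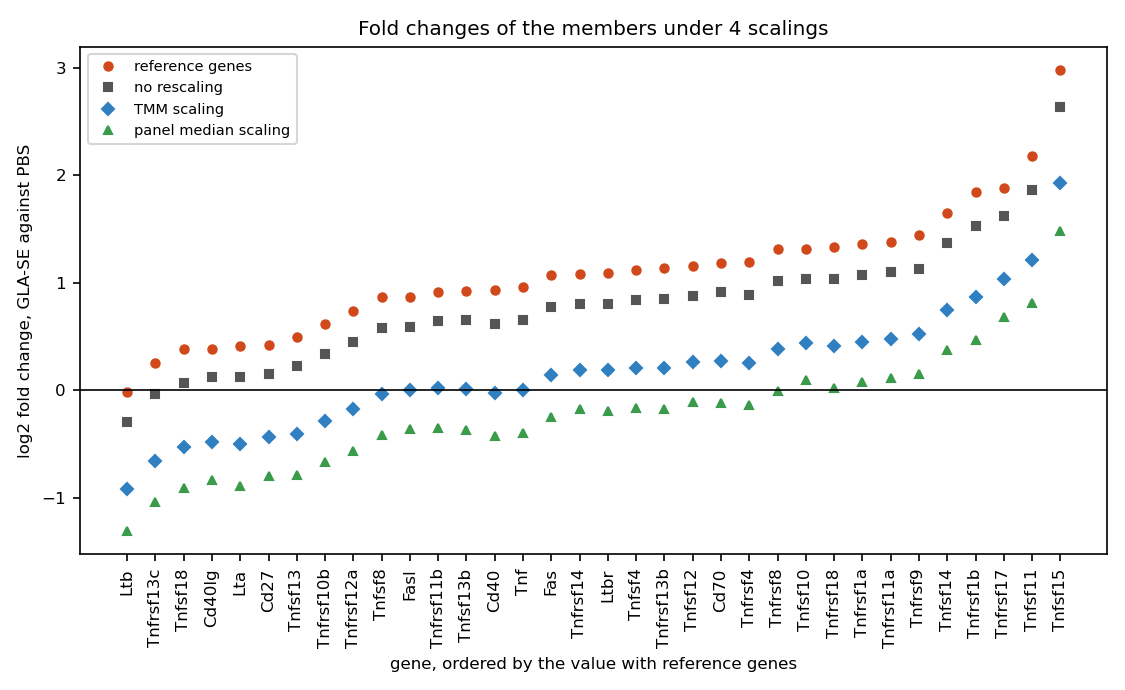
The vertical axis is the edgeR log2 fold change of GLA-SE against PBS tumors for each of the 34 members, ordered by the value with reference genes, with 1 symbol per scaling. All members but Ltb are above 0 with reference genes, and 10 are above 0 with panel median scaling, with Tnfsf15, Tnfsf11, Tnfrsf17 and Tnfrsf1b at the upper end under all 4 scalings shown.

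Among the ligands and receptors of TNF, lymphotoxin and LIGHT, 4 of 4 receptors and 1 of 4 ligands rose in GLA-SE tumors relative to the reference genes, with Ltbr and Tnfrsf14 turning negative (-0.19 and -0.18) under panel median scaling. Tnf, the founding cytokine of the family and a product of activated macrophages and T cells, was at 226, 179, 178 and 206 scaled counts in PBS tumors, at 174, 149.9, 209 and 167 in SE tumors and at 196, 233, 753 and 349 in GLA-SE tumors. GLA-SE replicate 3 was far above the rest and GLA-SE replicate 1 lay within the PBS range, so the groups overlapped. The fitted log2 fold change of GLA-SE against PBS was 0.96 ± 0.40 (standard error, n = 4 per group) and did not pass the edgeR test (adjusted p = 0.0591, exact permutation p = 0.114). Without GLA-SE replicate 3 the value was 0.39. Tnf was called higher by edgeR without GLA-SE replicate 1 or without GLA-SE replicate 2, and by DESeq2 on the reference genes. Under panel median scaling its log2 fold change was -0.40.

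Tnfrsf1a, the widely expressed receptor with a death domain (TNFR1), was at 457, 326, 383 and 399.5 scaled counts in PBS, at 302, 269, 1212 and 2791 in SE and at 842, 1143, 1096 and 929 in GLA-SE tumors. The GLA-SE values were close together and all above PBS, whereas the SE values ran from below PBS to above every GLA-SE tumor. Against PBS, GLA-SE tumors had a log2 fold change of 1.36 ± 0.15 (edgeR, adjusted p = 0.000219), the smallest adjusted p of the members, although not called with all 12 tumors in 1 fit. Tnfrsf1b, the receptor TNFR2 found mainly on immune and endothelial cells, was at 292, 267, 243 and 310.5 in PBS tumors. The SE values were 211, 198, 642 and 826 and the GLA-SE values 582, 646, 2016 and 750.3. All GLA-SE values exceeded all PBS values, with replicate 3 highest. Its log2 fold change was 1.84 ± 0.40 (edgeR, adjusted p = 0.00393), or 1.24 without GLA-SE replicate 3. Tnfsf14, which encodes LIGHT, a ligand of the lymphotoxin-β receptor and of HVEM, was at 35.8, 21.5, 22.6 and 21.4 in PBS, at 21.4, 20.8, 67.4 and 167 in SE and at 48.2, 68.5, 109 and 93.5 in GLA-SE tumors. PBS and GLA-SE tumors did not overlap, and SE replicate 4 was the highest of all 12. On the log2 scale GLA-SE tumors exceeded PBS tumors by 1.65 ± 0.31 (edgeR, adjusted p = 0.00208).

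The receptors that pair with LIGHT were called as well on the reference gene scale: Ltbr, the lymphotoxin-β receptor, had a log2 fold change of 1.09 ± 0.15 and Tnfrsf14, which encodes HVEM, one of 1.08 ± 0.15, both negative under panel median scaling as given above. The lymphotoxin genes were not called on that scale. Lta, the secreted lymphotoxin of B and T cells, averaged 885 ± 96.5 scaled counts (SD, n = 4) in PBS and 1172 ± 347 in GLA-SE tumors, and Ltb, its membrane partner, 7933 ± 453 and 7826 ± 630.1. Ltb had a log2 fold change of -0.02 ± 0.09, the lowest of the members, and Lta one of 0.41 ± 0.21. Ltb was called lower under panel median (-1.31) and TMM scaling (-0.92) and without any rescaling (-0.30). Lta was called lower under panel median scaling (-0.89).

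For the death ligands and receptors, 3 of 4 rose relative to the reference genes. Under panel median scaling Fas and Tnfrsf10b turned negative (-0.25 and -0.67), and Tnfrsf10b was called lower there but Fas was not. Tnfsf10, which encodes the death ligand TRAIL, an interferon-induced gene, was at 101, 49.6, 68.6 and 90.5 scaled counts in PBS tumors. The SE values were 79.6, 71.8, 115 and 293 and the GLA-SE values 197, 302, 108 and 159.6. GLA-SE replicate 3, the highest tumor for many members, was the lowest of its group here and lay just above the top PBS tumor. GLA-SE differed from PBS tumors by a log2 fold change of 1.31 ± 0.35 (edgeR, adjusted p = 0.0104). Fas, the receptor of Fas ligand, rose from a mean of 216 ± 27.9 to 453 ± 185 (log2 fold change 1.07 ± 0.27, edgeR adjusted p = 0.00808), and Tnfrsf10b, the mouse TRAIL death receptor, had a log2 fold change of 0.62 ± 0.17, both negative under panel median scaling as given above. Fasl itself, the killing ligand of T and NK cells, averaged 26.8 ± 13.2 in PBS and 49.2 ± 7.84 in GLA-SE tumors without overlap. Its adjusted p was 0.0545 (edgeR, log2 fold change 0.87 ± 0.36). DESeq2 on the reference genes and limma called Fasl higher, while under panel median scaling its log2 fold change was -0.36.

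Of the BAFF and APRIL system, which keeps B cells alive, 1 of 2 ligands and 2 of 3 receptors rose relative to the reference genes, with Tnfsf13b and Tnfrsf13b turning negative (-0.37 and -0.18) under panel median scaling. Tnfrsf17, which encodes BCMA, a marker of plasma cells, was at 9.4, 5.6, 6.6 and 12.7 scaled counts in PBS, at 8.7, 8.3, 16.2 and 28.5 in SE and at 64.6, 28.0, 18.5 and 16.3 in GLA-SE tumors. Each GLA-SE tumor was above each PBS tumor and replicate 1 was the highest, but the gene was below 20 deposited counts in 10 of 12 tumors. Against PBS, GLA-SE tumors had a log2 fold change of 1.88 ± 0.50 (edgeR, adjusted p = 0.00961), or 1.27 without GLA-SE replicate 1. Tnfrsf13b, which encodes TACI, the receptor of both BAFF and APRIL on B cells, averaged 306 ± 39.4 in PBS and 676 ± 262 in GLA-SE tumors (log2 fold change 1.14 ± 0.25, edgeR adjusted p = 0.00454). Tnfsf13b, the ligand BAFF, had a log2 fold change of 0.92 ± 0.26. The BAFF receptor gene Tnfrsf13c, the main survival receptor of mature B cells, was at 0.25 ± 0.17 and not called. The APRIL gene Tnfsf13 was at 0.49 ± 0.25 and not called. Under panel median scaling Tnfrsf13c (-1.04) and Tnfsf13 (-0.79) were both called lower. Beside these, the summed B cell markers were 12695 to 15363 in GLA-SE and 16370 to 19661 in PBS tumors, with 2 of 6 called lower. The part of B cell content, from A20 or host, in these values was not tested.

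Of the costimulatory members, 4 of 6 ligands and 5 of 6 receptors rose relative to the reference genes, of which Cd70, Tnfsf4, Tnfsf8, Cd40, Tnfrsf4 and Tnfrsf8 were negative under panel median scaling. Tnfsf15, which encodes TL1A, a ligand for a receptor on T cells that is not analysed here, was at 24.5, 21.5, 19.0 and 25.4 scaled counts in PBS tumors. The SE values were 21.4, 30.2, 41.2 and 59.0 and the GLA-SE values 53.0, 36.3, 567 and 58.0. GLA-SE replicate 3 stood about an order of magnitude above the other GLA-SE tumors, and yet all GLA-SE tumors were above all PBS tumors. On the log2 scale GLA-SE tumors exceeded PBS tumors by 2.98 ± 0.91 (edgeR, adjusted p = 0.0183), or 1.12 without GLA-SE replicate 3. Tnfsf4, which encodes OX40 ligand, expressed by activated antigen-presenting cells and endothelium, was at 77.2, 48.6, 51.1 and 56.4 in PBS, at 31.4, 28.1, 38.7 and 32.6 in SE and at 111, 93.5, 192 and 112 in GLA-SE tumors. The 3 groups did not overlap, with SE lowest and GLA-SE highest. GLA-SE differed from PBS tumors by a log2 fold change of 1.12 ± 0.28 (edgeR, adjusted p = 0.00758), and it was -0.17 under panel median scaling.

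Of the 6 costimulatory receptors, Cd40, Tnfrsf4, Tnfrsf8, Tnfrsf9 and Tnfrsf18 were called and Cd27 was not. Tnfrsf9, which encodes 4-1BB, an activation-induced receptor of T and NK cells, was at 54.6, 19.6, 37.2 and 54.0 scaled counts in PBS tumors. The SE values were 40.1, 38.5, 52.5 and 59.0 and the GLA-SE values 68.4, 81.0, 188 and 113. GLA-SE tumors were above all others, while SE and PBS tumors overlapped. Against PBS, GLA-SE tumors had a log2 fold change of 1.44 ± 0.42 (edgeR, adjusted p = 0.0139). Tnfrsf18, which encodes GITR, a receptor abundant on regulatory T cells, was at 68.8, 33.7, 43.8 and 54.0 in PBS, at 34.1, 21.9, 105 and 144 in SE and at 80.0, 114, 206 and 104 in GLA-SE tumors. All GLA-SE tumors were above all PBS tumors, and SE replicates 3 and 4 fell within the GLA-SE range. On the log2 scale GLA-SE tumors exceeded PBS tumors by 1.33 ± 0.35 (edgeR, adjusted p = 0.00895). Its genomic neighbor Tnfrsf4, the OX40 receptor, had a log2 fold change of 1.19 ± 0.33, or -0.14 under panel median scaling.

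Tnfrsf8 (CD30), a receptor of activated lymphocytes, had a log2 fold change of 1.31 ± 0.36 (edgeR, adjusted p = 0.0114) with overlapping groups, and Tnfsf8, its ligand, one of 0.87 ± 0.30, but under panel median scaling they were -0.01 and -0.42. Tnfsf8 was below 20 deposited counts in all 12 tumors. Cd40, the receptor through which T cells license antigen-presenting cells and which B cells also carry, had a log2 fold change of 0.93 ± 0.30 (adjusted p = 0.0224, edgeR), and the value was 0.50 without GLA-SE replicate 3 and -0.43 under panel median scaling. Its call was lost without PBS replicate 1, 2 or 3. Cd70, the ligand of CD27, was called (log2 fold change 1.18 ± 0.43) in only 3 of the 8 fits that left out 1 tumor: the call was lost without PBS replicate 1, 3 or 4 and without GLA-SE replicate 3 or 4. Tnfsf8 lost its call without PBS replicate 2 or 4 and without GLA-SE replicate 3 or 4, and Tnfrsf12a without PBS replicate 2 or 4, while the other 21 called members kept theirs in all 8 such fits. Not called on the reference gene scale were Cd27, Cd40lg and Tnfsf18, the genes of CD27, CD40 ligand and GITR ligand. Their log2 fold changes were 0.42 ± 0.35, 0.38 ± 0.29 and 0.38 ± 0.24. Under panel median scaling all of them were called lower (-0.80, -0.84 and -0.91). Beside the costimulatory members, T cell markers summed to 4083 to 5377 scaled counts in GLA-SE and 1309 to 3281 in PBS tumors with 5 of 8 called higher, and regulatory T cell markers to 644 to 1462 and 189 to 358 with 3 of 3 called higher, and the part of these cells in the values was not tested.

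Of the RANK and TWEAK members, 2 of 2 ligands and 3 of 3 receptors rose relative to the reference genes. Of these, Tnfsf12 (-0.11), Tnfrsf11b (-0.35) and Tnfrsf12a (-0.57) were negative under panel median scaling, and Tnfrsf12a was called lower there. Tnfsf11, which encodes RANK ligand, the osteoclast factor that is also made by activated T cells and stroma, was at 34.9, 16.8, 22.6 and 27.0 scaled counts in PBS tumors. The SE values were 17.4, 40.6, 31.2 and 456 and the GLA-SE values 57.8, 89.3, 251 and 62.0. All GLA-SE tumors were above all PBS tumors, but the highest value of the 12 was that of SE replicate 4. GLA-SE differed from PBS tumors by a log2 fold change of 2.18 ± 0.52 (edgeR, adjusted p = 0.00645), or 1.46 without GLA-SE replicate 3. Tnfrsf11a, which encodes RANK, a receptor of myeloid and dendritic cells, was at 64.1, 53.3, 53.3 and 48.4 in PBS, at 46.1, 52.1, 199 and 326 in SE and at 143, 162, 139 and 126 in GLA-SE tumors. GLA-SE values were close together and well above PBS, and SE replicates 3 and 4 were higher still. Against PBS, GLA-SE tumors had a log2 fold change of 1.38 ± 0.18 (edgeR, adjusted p = 0.000405). Tnfsf12, which encodes TWEAK, had a log2 fold change of 1.16 ± 0.21, Tnfrsf11b, the decoy receptor osteoprotegerin, 0.91 ± 0.22, and Tnfrsf12a, the TWEAK receptor Fn14 of stromal cells, 0.74 ± 0.23, with the negative values under panel median scaling given above. Beside these members, monocyte and macrophage markers summed to 84150 to 123121 scaled counts in GLA-SE and 29166 to 37507 in PBS tumors, and endothelium and fibroblast markers to 17990 to 26332 and 4047 to 9177, with 8 of 8 genes of each list called higher. Neutrophil markers (3 of 6 called higher) were at 813 to 8876 and 214 to 234, NK markers (3 of 5) at 895 to 1015 and 254 to 629, and dendritic cell markers (1 of 5) at 846 to 1220 and 656 to 791, and the part of these cells in the members' values was not tested. These marker calls are also relative to the reference genes: under panel median scaling 2 of 8 monocyte and macrophage markers, 2 of 6 neutrophil markers and 1 of 3 regulatory T cell markers were called higher and none of the other lists. Called lower were 6 of 6 B cell, 3 of 6 neutrophil, 3 of 5 dendritic cell, 1 of 5 NK and 1 of 8 endothelium and fibroblast markers. No marker of any list was at 0, and Camp was below 20 deposited counts in all tumors.

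**Figure D3:**
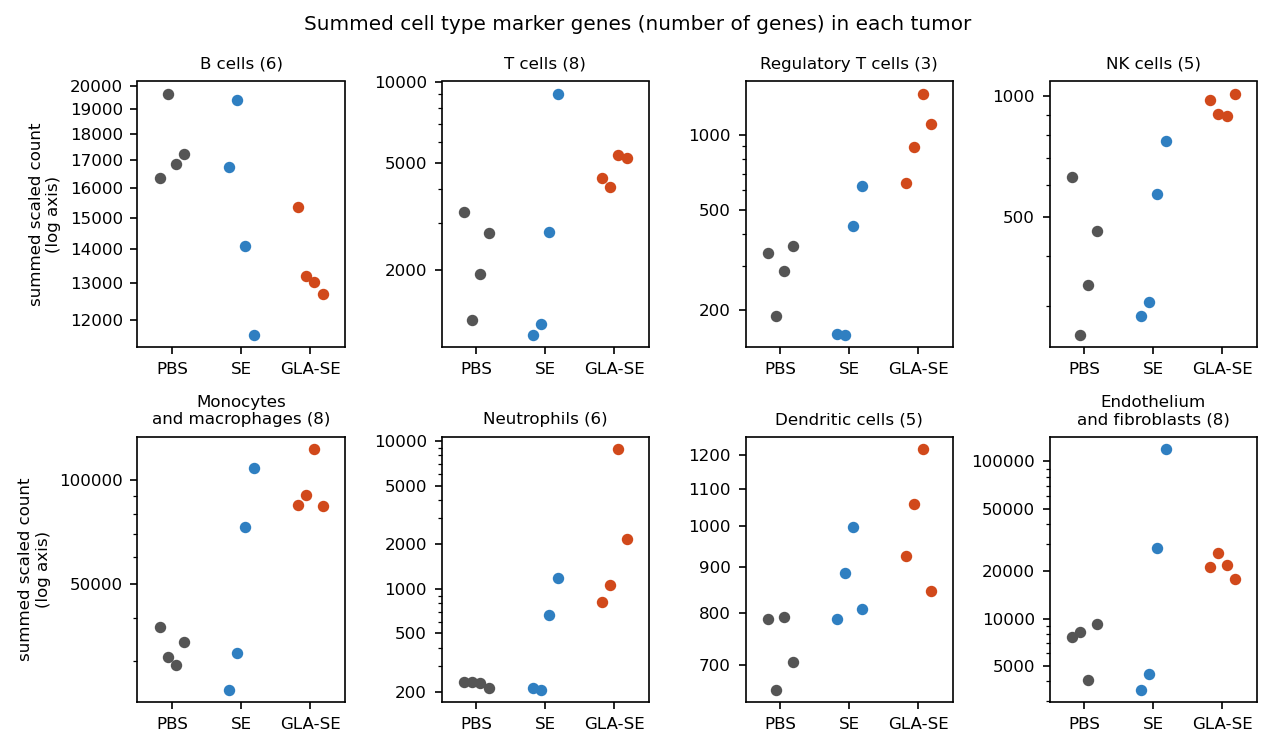
Each point is a tumor and the vertical axis, a log axis, is the sum of scaled counts over the marker genes of a cell type, with the number of genes in parentheses. GLA-SE tumors sit above all PBS tumors for every list but B cells, SE replicates 3 and 4 are high for endothelium and fibroblasts (28047 and 120497), and GLA-SE replicate 3 is high for neutrophils (8876).

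The second comparison asked what the emulsion did without the agonist. No member passed the edgeR test in SE against PBS tumors (smallest adjusted p = 0.243), and neither did any of the 750 genes (0.0%). At an unadjusted p under 0.05, edgeR gave 5 members (14.7%), against 18.7% of the panel: Tnfrsf11a, Tnfsf12 and Tnfsf13b with higher mean values (8.82%, panel 17.9%) and Lta and Tnfsf4 with lower ones (5.88%, panel 0.8%). DESeq2 scaled to the reference genes called 2 of 30 members, Lta and Tnfsf4, both lower (6.67%, against 9.21% of the panel genes with an adjusted p, of which 8.25% were higher and 0.952% lower). DESeq2 with its own size factors called Tnfsf4 lower (2.94%, against 1.22% of the panel), and limma called 0. The median log2 fold change was 0.56 over the members and 0.53 over the panel.

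The largest fitted differences were those of members that were high in SE replicate 4 and, apart from Tnfsf11, in SE replicate 3 as well. Tnfsf11 had a log2 fold change of 2.41 ± 1.06, Tnfsf12 1.66 ± 0.70, Tnfrsf1a 1.54 ± 0.72, Ltbr 1.52 ± 0.70, Tnfrsf11a 1.50 ± 0.65, Tnfsf14 1.42 ± 0.70 and Tnfrsf12a 1.41 ± 0.63, each with a standard error of 0.63 or more. Without SE replicate 4 these values were 0.22 for Tnfsf11, 0.88 for Tnfsf12, 0.60 for Tnfrsf1a, 0.61 for Ltbr, 0.84 for Tnfrsf11a, 0.51 for Tnfsf14 and 0.72 for Tnfrsf12a. For Ltbr the SE group ran from 91.6 to 841 scaled counts around a PBS range of 115 to 127, and for Tnfrsf12a from 111 to 794 around 115 to 169. Ltbr and Tnfrsf12a are known from stromal and myeloid cells, and the same tumors had the high endothelium and fibroblast sums (28047 and 120497) and monocyte and macrophage sums (73378 and 108254) given for the marker lists, while SE replicates 1 and 2 lay at 24652 and 31631 for the latter. Cd27 and Cd40lg, receptor and ligand of T cells, were at 175 and 187 in SE replicate 4 against at most 38.7 in the other SE tumors, and T cell markers there summed to 9059 against 1147 to 2780. The part of these cells in the members' values was not tested.

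For 3 members the SE and PBS tumors did not overlap (8.82%, against 9.73% of the panel in either direction). Lta was 423 to 598 scaled counts in SE and 769 to 1002 in PBS tumors, with a log2 fold change of -0.70 ± 0.16 (edgeR, adjusted p = 0.243). Tnfsf4, listed above for every tumor, had a log2 fold change of -0.83 ± 0.28 (edgeR, adjusted p = 0.243). Tnfsf13b, the BAFF gene, was 30.8 to 81.4 in SE and 21.9 to 27.3 in PBS tumors, with a log2 fold change of 0.87 ± 0.37. Without overlap, 4 tumors against 4 always give the smallest possible exact permutation p, 0.0286, so that value adds nothing here. None of the 3 members passed the adjusted test by edgeR. The values kept their signs under panel median scaling (-0.98 for Lta, -1.21 for Tnfsf4 and 0.27 for Tnfsf13b).

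**Figure D4:**
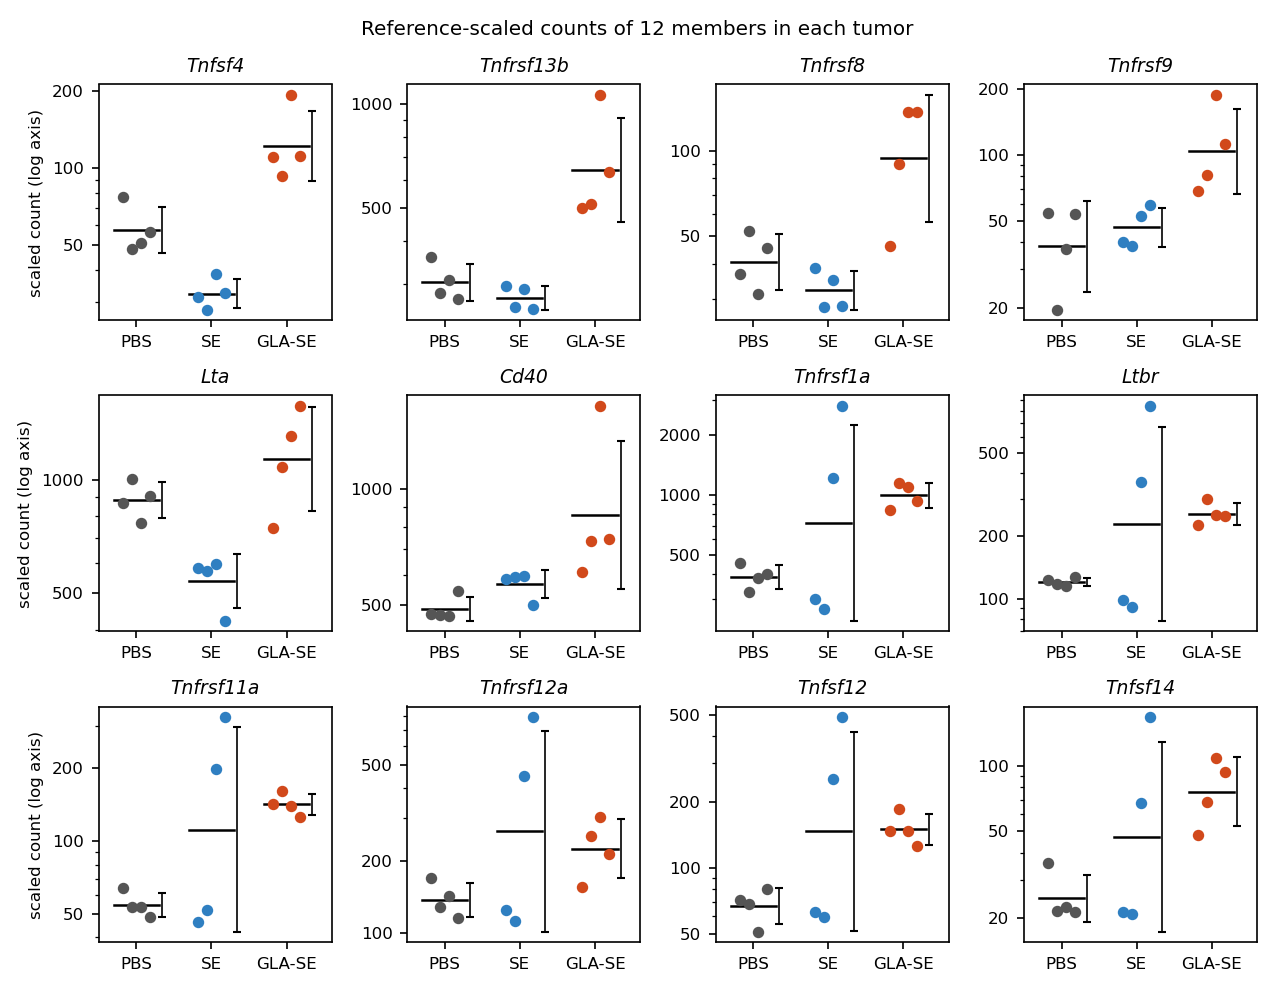
Scaled counts, on a log axis, of 12 members chosen after their values were seen, with 1 point per tumor; horizontal lines are means and bars SDs of the log2 values. In the upper row and for Lta the GLA-SE tumors lie above the SE tumors, while for Tnfrsf1a, Ltbr, Tnfrsf11a, Tnfrsf12a, Tnfsf12 and Tnfsf14 the SE tumors run from below to above all GLA-SE tumors.

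The third comparison, GLA-SE against SE, shows the agonist beside its own vehicle. Tnfsf4 alone among the members passed the edgeR test (1 of 34, or 2.94%, against 2.13% of the panel), and no member was called lower. OX40 ligand was 93.5 to 192 scaled counts in GLA-SE and 28.1 to 38.7 in SE tumors, a log2 fold change of 1.96 ± 0.35 (edgeR, adjusted p = 0.0271), or 3.88-fold. Its value stayed between 1.69 and 2.08 when any 1 tumor was left out and was 1.03 under panel median and 1.47 under TMM scaling. Its adjusted p was under 0.05 in 2 of the 8 fits that left out 1 tumor, those without GLA-SE replicate 3 (0.0422) and without SE replicate 4 (0.0217), and ran from 0.0587 to 0.116 in the others, those without GLA-SE replicates 1, 2 or 4 and without SE replicates 1, 2 or 3. Against PBS the same gene lay on opposite sides in the 2 groups given the emulsion, 1.12 in GLA-SE and -0.83 in SE on the reference gene scale, comparisons that share the PBS tumors. The receptor of this ligand, Tnfrsf4, was 81.9 to 232 in GLA-SE and 37.4 to 105 in SE tumors (log2 fold change 1.06 ± 0.51, edgeR adjusted p = 0.328).

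For 8 members (23.5%, against 14.4% of the panel) every GLA-SE tumor was above every SE tumor: Tnfsf4, Lta, Tnfrsf13b, Tnfrsf8, Tnfrsf9, Cd40, Fasl and Tnfrsf10b, of which Cd40, Fasl and Tnfrsf10b had negative fitted values under panel median scaling (-0.35, -0.05 and -0.20). On the deposited counts before any scaling this held for 9 members (26.5%, against 24.4% of the panel), of which Tnfsf4, Tnfrsf13b, Tnfrsf9 and Fasl were among the 8, while Lta, Tnfrsf8, Cd40 and Tnfrsf10b overlapped. Tnfrsf13b, the TACI gene, was 499 to 1058 scaled counts in GLA-SE and 254 to 298 in SE tumors, a log2 fold change of 1.30 ± 0.29 (edgeR, adjusted p = 0.0681). Lta was 745 to 1563 and 423 to 598, a log2 fold change of 1.10 ± 0.26 (edgeR, adjusted p = 0.0811). Tnfrsf8 was 46.3 to 137 and 28.1 to 38.8, a log2 fold change of 1.65 ± 0.42 (edgeR, adjusted p = 0.0909). These genes were close to the threshold and did not pass it, and 4 members (Tnfsf4, Lta, Tnfrsf13b and Tnfrsf8) passed when all 12 tumors were put in 1 fit (11.8%, against 9.33% of the panel). Without SE replicate 4, edgeR called 5 members, Cd27, Lta, Tnfrsf13b, Tnfrsf14 and Tnfsf4 (14.7%, against 13.6% of the panel). Without GLA-SE replicate 1 it called 2, Lta and Tnfrsf8 (5.88%, panel 2.27%). With GLA-SE replicate 3 and SE replicate 4 both left out, a setting added after the data were seen, it called 3, Tnfrsf13b, Tnfrsf14 and Tnfsf4 (8.82%, panel 9.07%). The members' shares without SE replicate 4 and with both tumors left out were thus near the background. Tnf was 196 to 753 in GLA-SE and 149.9 to 209 in SE tumors, a log2 fold change of 1.13 ± 0.45 (edgeR, adjusted p = 0.239).

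Several members that were high in SE replicate 4 and, apart from Tnfsf11, in SE replicate 3 gave negative fitted values with wide errors: Tnfrsf1a -0.19 ± 0.70, Tnfrsf11a -0.12 ± 0.64, Tnfsf11 -0.23 ± 1.08, Ltbr -0.43 ± 0.69, Tnfsf12 -0.50 ± 0.68 and Tnfrsf12a -0.68 ± 0.64. These signs rested on SE replicate 4, since without it the values were 0.76 for Tnfrsf1a, 0.53 for Tnfrsf11a, 1.96 for Tnfsf11, 0.48 for Ltbr, 0.28 for Tnfsf12 and 0.02 for Tnfrsf12a, and none was called. At an unadjusted p under 0.05, 10 members (29.4%) differed, all with higher means in GLA-SE tumors on the reference gene scale, against 16.7% of the panel. The median log2 fold change was 0.56 over the members and 0.22 over the panel, and the latter was -0.46 under panel median scaling.

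**Figure D5:**
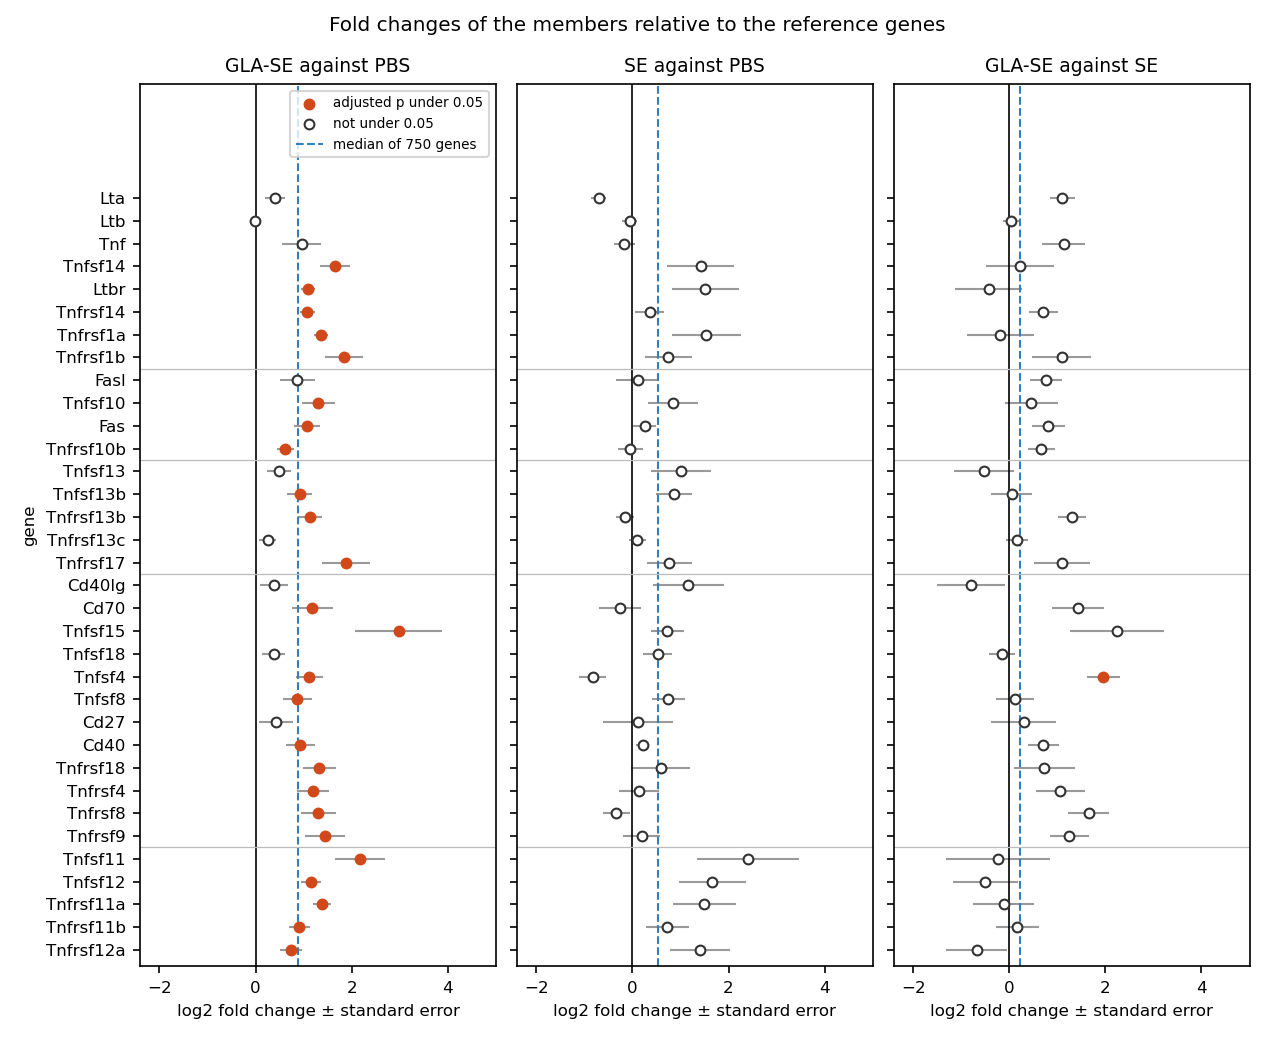
Points are edgeR log2 fold changes ± standard error of the 34 members relative to the reference genes in the 3 comparisons; filled points have an adjusted p under 0.05 and the dashed line is the median of all 750 genes (0.89, 0.53 and 0.22). There are 25 filled points in GLA-SE against PBS, 0 in SE against PBS and 1, Tnfsf4, in GLA-SE against SE, and panel median scaling turns 24 of the 34 values negative in the first comparison.

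Genes that act below the receptors were read from 2 lists. Of 17 receptor adaptor and NF-kB genes, 11 rose and 0 fell in GLA-SE against PBS tumors relative to the reference genes (panel 68.3% and 0.4%). Under panel median scaling 15 of 17 were called lower and 0 higher (panel 40.9% and 8.13%). With the reference genes the list median log2 fold change was 0.45 beside the panel's 0.89. The largest were Tnfaip3, which encodes A20, a ubiquitin-editing inhibitor of NF-kB that shares only its name with the cell line (1.85 ± 0.47, edgeR adjusted p = 0.00778), Nfkbia, the inhibitor IκBα (1.49 ± 0.42, edgeR adjusted p = 0.0122), and Tank, a TRAF-binding regulator (0.84 ± 0.20, edgeR adjusted p = 0.00618), and of these Tank turned negative (-0.48) under panel median scaling. Of 6 death receptor signalling genes, 2 rose and 0 fell relative to the reference genes (panel 68.3% and 0.4%), with a list median of 0.11. They were Bcl2, an inhibitor of cell death (1.59 ± 0.21, edgeR adjusted p = 0.000405), and Casp8, the initiator caspase of the death receptors (0.44 ± 0.12, edgeR adjusted p = 0.0096). Under panel median scaling 5 of 6 were called lower (panel 40.9%) and Casp8 was negative (-0.84). No gene of either list was called by edgeR or limma in SE against PBS or in GLA-SE against SE tumors. At an unadjusted p under 0.05 edgeR gave 2 of 17 and 0 of 6 in the former (panel 18.7%) and 1 of 17 and 0 of 6 in the latter (panel 17.7%). DESeq2 on the reference genes called 1 adaptor gene in the former (panel 9.21%) and no gene of either list in the latter (panel 16.5%).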

How the data were processed

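RNA of 12 A20 tumors (4 PBS, 4 SE, 4 GLA-SE, grouped by their titles) was hybridised without amplification to the nCounter mouse PanCancer Immune panel. The deposited values are raw whole-number counts per gene, as the authors exported them; subtraction of background and the panel's control probes are not analysed here. The members and lists were chosen with earlier results of these data known. Every tumor's counts were divided by a factor from the geometric mean of 17 of 20 reference genes, kept by geNorm over the 12 tumors, whereas the study's software chose reference genes for each analysis. Each pair of groups was tested with edgeR 4.0.16 (quasi-likelihood F test, no covariate, no filter on low counts, 8 tumors per fit), with Benjamini-Hochberg adjustment over 750 genes and a threshold of 0.05. The value after ± is the standard error for a log2 fold change and the SD of the group for a mean scaled count. A two-sided exact permutation test over the 70 assignments of 4 against 4 tumors, on mean log2(scaled count + 1), stood beside it (smallest p 0.0286). Values of every tumor were given for Tnf and for up to 10 members per comparison that were called without overlap and had the largest log2 fold changes; other members were given by ranges and means. At most 3 called genes without overlap were named from each of the receptor adaptor and death receptor lists. Of the B cell marker and death receptor lists, 1 gene each is not reported here and enters no count or sum of its list. Alternatives included a filter of 20 counts in at least 4 tumors, other scalings (reference genes of each comparison, all 20 reference genes, the panel median, TMM, none), DESeq2 1.42.0, limma 3.58.1 with pseudocounts of 10 and 1, a plain t-test as in the methods, 1 fit of all 12 tumors, a replicate block and leaving out each tumor. The fit was tested on simulated counts. Total counts were 810260 to 1612415 per tumor; counting error weighs most on genes under 20 counts. Each tumor came from a separate mouse, and same-numbered tumors did not deviate together (correlations from -0.248 to 0.184), so the main fits paired no tumors. The labels do not say whether same-numbered tumors shared a litter or day, and these correlations cannot settle it.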

Additional observations from a re-analysis of the deposited data

Results flagged for a closer look

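Among 102 sets of 4 values (34 members in 3 groups), 13 held a tumor far from the other 3, its gap to the nearest of them, as a share of the whole range, being past Dixon's 95% critical value. At 1 in 20, the rate for independent sets of normally distributed values, 5.1 would be flagged by chance. These sets come from the same tumors and are not independent, and the share flagged over the whole panel was not tested. The count of 13 therefore cannot be read as an excess particular to the members. SE replicate 4 was the far tumor in 5 sets and GLA-SE replicate 3 in 4. In SE replicate 4, Cd27 was at 175.1 scaled counts (24.1 to 38.7 in the other SE tumors), Cd40lg at 187.3 (20.1 to 38.7) and Tnfsf11 at 456.0 (17.4 to 40.6), while Cd40 was lowest at 500.8 (585.1 to 597.1) and Lta lowest at 423.4 (572.7 to 598.3). In GLA-SE replicate 3, Cd40 was at 1645.3 (609.0 to 741.2 in the other GLA-SE tumors), Tnfrsf1b at 2015.9 (582.1 to 750.3), Tnfsf11 at 251.0 (57.8 to 89.3) and Tnfsf15 at 567.3 (36.3 to 58.0). The remaining 4 were smaller in size: Cd40 in PBS replicate 4 at 543.3 (469.6 to 475.7), Tnfrsf10b in PBS replicate 3, lowest at 161.4 (190.6 to 194.1), Tnfsf14 in PBS replicate 1 at 35.8 (21.4 to 22.6), and Tnfrsf13c in SE replicate 2 at 464.4 (354.2 to 364.4).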

How the results depend on the processing

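In GLA-SE against PBS, 25 members were called. The count was 9 (0 higher, 9 lower) under panel median scaling (26.5%, against 49.1% of the panel). It was 7 under TMM scaling (20.6%, panel 42.1%) and 7 under DESeq2 with its own size factors (21.2%, panel 46.9%), with 5 higher and 2 lower in each. With all 12 tumors in 1 fit it was 10 (29.4%, panel 33.7%). It was 20 without rescaling (19 higher, 58.8% in either direction, panel 49.1%) and 23 with the filter of 20 counts (74.2%, panel 74.6%). The methods' t-test gave 21 after Benjamini-Hochberg (61.8%, panel 64.7%) and 24 before (panel 70.3%). The count ranged from 22 to 27 when 1 tumor was left out (64.7% to 79.4%, panel 58.9% to 67.1%). The panel split moved with the scaling too, from 512 higher and 3 lower to 61 and 307 (panel median), 148 and 168 (TMM) and 190 and 152 (DESeq2, own size factors). In SE against PBS the count of 0 became 1 with DESeq2's own size factors (2.94%, panel 1.22%). It became 2 with DESeq2 on the reference genes (6.67%, panel 9.21%), where 4 members had no adjusted p. It stayed at 0 in every fit without 1 tumor. The t-test gave 3 members before adjustment, against 9.73% of the panel. In GLA-SE against SE the count of 1 became 0 under panel median scaling and 0 under TMM scaling. It was 5 with DESeq2 on the reference genes (16.1%, panel 16.5%) and 4 with all 12 tumors in 1 fit (11.8%, panel 9.33%). With GLA-SE replicate 3 and SE replicate 4 both left out it was 3 (8.82%, panel 9.07%). It ranged from 0 to 5 when 1 tumor was left out (panel 0.533% to 13.6%). The t-test gave 8 before adjustment (panel 17.5%) and 1 after (2.94%, panel 2.13%). DESeq2 gave Tnfsf15 no adjusted p in either comparison with GLA-SE. With the replicate number as a block, 20 members (58.8%, against 58.7% of the panel) were called in GLA-SE against PBS. In SE against PBS and in GLA-SE against SE the count was 0 (0.0%, panel 0.0%). The log2 fold change of Tnfsf4 in GLA-SE against SE was then 1.91 (edgeR adjusted p = 0.136). The labels do not say whether same-numbered tumors shared a litter or day.

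Of the members called under the main setting or the alternative, the values that changed sign were all in GLA-SE against PBS. Values called in neither fit also changed sign, in 16 cases over 9 members there, 51 over 13 members in SE against PBS and 76 over 20 members in GLA-SE against SE. Among those in GLA-SE against PBS were Tnf (-0.40) and Fasl (-0.36) under panel median scaling. Under panel median scaling the log2 fold change was -0.80 for Cd27, -0.43 for Cd40, -0.84 for Cd40lg, -0.12 for Cd70, -0.25 for Fas, -0.89 for Lta, -0.19 for Ltbr, -0.67 for Tnfrsf10b, -0.35 for Tnfrsf11b, -0.57 for Tnfrsf12a, -0.18 for Tnfrsf13b, -1.04 for Tnfrsf13c, -0.18 for Tnfrsf14, -0.14 for Tnfrsf4, -0.01 for Tnfrsf8, -0.11 for Tnfsf12, -0.79 for Tnfsf13, -0.37 for Tnfsf13b, -0.91 for Tnfsf18, -0.17 for Tnfsf4 and -0.42 for Tnfsf8. TMM scaling gave -0.03 for Cd40, -0.29 for Tnfrsf10b, -0.18 for Tnfrsf12a, -0.66 for Tnfrsf13c and -0.04 for Tnfsf8, and DESeq2 with its own size factors -0.22 for Tnfrsf10b, -0.12 for Tnfrsf12a and -0.60 for Tnfrsf13c. The panel's own median log2 fold change was 0.89 with reference genes, -0.40 under panel median scaling, -0.01 under TMM scaling and 0.05 with DESeq2's own size factors; the cause was not tested. Members below 20 counts are the least precise, and 4 mice per group limit every comparison.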
